A study of Mus musculus with 14 samples.

Results

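Chemokines are small secreted proteins that direct the movement of cells through G-protein-coupled receptors. The chemokine genes Ccl2, Ccl7, Ccl11, Cxcl1, Cxcl13 and Cxcl14, which marrow stroma transcribes in inflammatory or resting states, were examined in bone marrow cells of mice with and without breast tumours. They were chosen by gene symbol, and all 6 were found among the 50600 genes of the bulk table and the 32285 genes of the stromal single-cell tables. Of these 6, Ccl2 alone was among the 11992 genes of the table of hematopoietic stem and progenitor cells (HSPC), and the others were not analysed here in HSPC.

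The series holds bulk RNA libraries of marrow mesenchymal stem cells (MSC), 4 from mice with Py230 tumours and 4 from tumour-free mice. PyMT mice carry a transgene for polyoma middle T, an oncogene that gives them mammary tumours, and Py230 is a tumour line established from such tumours. It also holds droplet single-cell libraries of marrow stromal cells from PyMT and wild-type (WT) mice, 1 library each, and of HSPC from 2 PyMT and 2 WT mice. The comparisons ask how marrow cells differ when a tumour grows at a distant site. The labels give no strain, sex, age, tumour size or promoter of the transgene, and do not say whether each bulk library came from its own animal, so its p-values measure the spread between libraries, which may be technical. With 1 stromal library per genotype, genotype and library cannot be told apart there. Titles of the 4 HSPC libraries all begin with PyMT, but their genotype labels give WT for 2 of them and were followed here. Bulk libraries held 4301375 to 9811251 counted reads, and HSPC libraries 16365550 to 28570481 UMIs (unique molecular identifiers, each standing for 1 captured RNA molecule).

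In marrow, stromal chemokines hold hematopoietic cells in place or send leukocytes into the blood. Ccl2 and Ccl7 are ligands of Ccr2, through which monocytes leave the marrow. Cxcl1 acts on neutrophils through Cxcr2, Ccl11 (eotaxin) on eosinophils through Ccr3, and Cxcl13 on B cells through Cxcr5. Cxcl14 is made by many tissues at rest, and its receptor is not settled. Transcripts of Ccl2, Ccl7 and Cxcl1 are induced within hours by inflammatory signals in many cell types.

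In GRCm38 with GENCODE M21, Ccl2 (ENSMUSG00000035385) lies on the plus strand of chromosome 11 from 82035571 to 82037453. Ccl7 (ENSMUSG00000035373) follows after 8258 bases, from 82045712 to 82047525, and Ccl11 (ENSMUSG00000020676) after a further 10297 bases, from 82057823 to 82062955, both on the same strand. Cxcl1 (ENSMUSG00000029380) lies on the plus strand of chromosome 5 from 90891241 to 90893115, and Cxcl13 (ENSMUSG00000023078) on the same strand from 95956951 to 95961068. Cxcl14 (ENSMUSG00000021508) lies on the minus strand of chromosome 13 from 56288643 to 56296551. All 6 are protein-coding.

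No promoter sequence was available here for Ccl2, Ccl7 or Ccl11, which were not searched. Those of the other 3 members, Cxcl1, Cxcl13 and Cxcl14, were matched in RefSeq sequences of build GRCm38.p6 and are shown. Each runs 5′ to 3′ over the 250 bases before the start that RefSeq gives, which for Cxcl1 and Cxcl13 is not the GENCODE start above. Both strands were searched for the NF-kB consensus, the AP-1 motif TGANTCA and the C/EBP half-site pair TTGCNNAA, and matches are in capitals.
Cxcl1: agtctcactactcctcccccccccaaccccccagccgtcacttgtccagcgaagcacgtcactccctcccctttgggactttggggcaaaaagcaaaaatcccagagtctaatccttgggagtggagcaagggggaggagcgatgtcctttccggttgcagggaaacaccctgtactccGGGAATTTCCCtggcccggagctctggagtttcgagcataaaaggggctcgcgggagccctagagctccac
Cxcl13: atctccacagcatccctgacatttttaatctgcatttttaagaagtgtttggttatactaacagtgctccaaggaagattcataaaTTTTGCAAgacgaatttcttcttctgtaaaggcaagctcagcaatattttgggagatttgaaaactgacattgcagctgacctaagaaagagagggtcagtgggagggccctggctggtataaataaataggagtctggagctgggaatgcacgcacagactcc
Cxcl14: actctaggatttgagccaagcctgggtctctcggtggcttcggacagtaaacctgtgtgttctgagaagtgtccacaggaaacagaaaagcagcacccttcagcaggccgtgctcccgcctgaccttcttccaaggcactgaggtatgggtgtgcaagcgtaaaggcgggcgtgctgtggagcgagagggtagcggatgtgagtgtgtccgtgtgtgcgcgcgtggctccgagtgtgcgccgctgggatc
These windows are chr5:90890995-90891244 and chr5:95956689-95956938 on the plus strand and chr13:56296552-56296801 on the minus strand. The Cxcl1 window held the NF-kB consensus on both strands, in overlapping matches between bases -71 and -61 counted back from the RefSeq start. The NF-kB consensus occurred in 3.9% of 32851 mouse promoter windows of the same length. The Cxcl13 window held the C/EBP motif on the minus strand from base -164 to -157, a motif found in 9.56% of windows. AP-1, found in 6.75% of windows, had no match in the 3 windows, and the Cxcl14 window had no match to any of the 3 motifs. A match describes the letters and not the binding of a factor.

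In bulk MSC, transcripts of the CC chemokine Ccl7 and of the B-cell chemokine Cxcl13 fell in mice with Py230 tumours, and no member rose. Of all 16317 genes tested 2.74% were called lower and 1.99% higher (edgeR quasi-likelihood test, adjusted p under 0.05), against 2 lower and 0 higher of the 5 members tested. The median log2 difference of those 5 members was -0.50, against 0.04 for all genes tested. All values are counts-per-million (CPM) with TMM scaling, and fewer cells of a kind and less RNA per cell cannot be told apart in bulk libraries.

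Ccl7 was at 15.3, 21.6, 20.5 and 34.4 CPM in Py230 libraries and at 48.8, 32.1, 40.01 and 46.9 CPM in tumour-free libraries. The groups overlapped only in Py230 replicate 4, which lay above tumour-free replicate 2. Its log2 difference was -0.88 (SE 0.21, edgeR adjusted p = 0.0329), a level 1.84-fold lower with Py230 tumours. Leaving out any of 5 libraries (Py230 replicate 2 or 3, tumour-free replicate 1, 3 or 4) ended this call, with edgeR adjusted p between 0.0564 and 0.107.

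Cxcl13 was at 2.16, 2.48, 2.53 and 4.08 CPM in Py230 libraries and 11.7, 8.15, 9.85 and 3.20 CPM in tumour-free libraries. Of the tumour-free libraries, 3 were higher than every Py230 library, and tumour-free replicate 4 lay within the Py230 range. The log2 difference was -1.57 (SE 0.38, edgeR adjusted p = 0.0334), or 2.96-fold lower with Py230 tumours. This call was lost without any of 6 libraries (Py230 replicate 1, 2 or 3, tumour-free replicate 1, 2 or 3; edgeR adjusted p from 0.0504 to 0.121).

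Cxcl1, the neutrophil attractant, was at 146, 229.5, 216 and 246 CPM in Py230 libraries and at 366, 254, 271 and 292 CPM in tumour-free libraries. It was the 1 tested member whose groups did not overlap, a separation seen for 5.61% of all tested genes in that direction and 5.36% in the other. The log2 difference of -0.50 (SE 0.16) did not pass (edgeR adjusted p = 0.106), but did with DESeq2 (adjusted p = 0.0321) and without a filter on low counts (edgeR adjusted p = 0.00739).

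Cxcl14, made by many tissues at rest, was at 649.8, 456, 435 and 436 CPM in Py230 libraries and at 565, 570.4, 822 and 759 CPM in tumour-free libraries. Py230 replicate 1 stood above the other 3 and above the lower tumour-free libraries. The log2 difference was -0.46 (SE 0.16, edgeR adjusted p = 0.148). Without Py230 replicate 1 the log2 difference was -0.63 and passed (edgeR adjusted p = 0.0214), as it did with DESeq2 (adjusted p = 0.0427) and without a filter (edgeR adjusted p = 0.0132).

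Ccl2, the monocyte chemokine, was at 78.04, 122, 133 and 155 CPM in Py230 libraries and at 144, 105, 147 and 202 CPM in tumour-free libraries. The groups overlapped, and the log2 difference of -0.29 (SE 0.23, edgeR adjusted p = 0.631) passed under no alternative tried. Ccl11 had 8, 6, 0 and 3 reads in Py230 libraries and 1, 10, 8 and 9 reads in tumour-free libraries, too few to be tested.

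**Figure D1:**
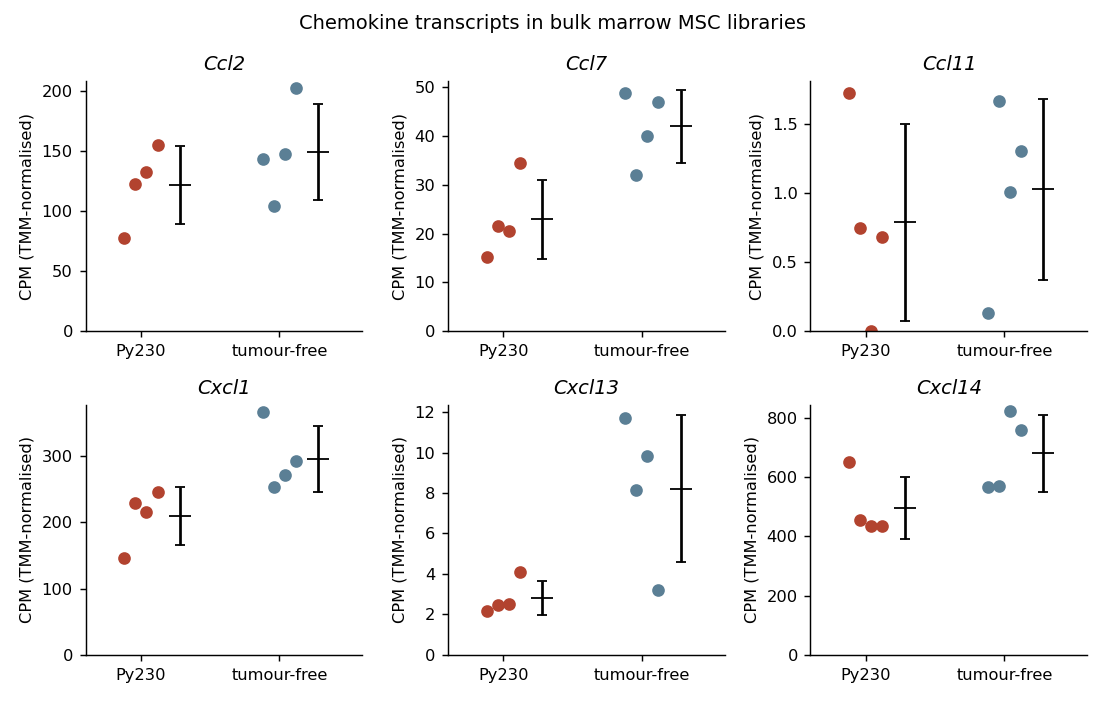
Transcript level of each chemokine in each bulk MSC library (y axis, TMM-normalised CPM, linear from 0), Py230 libraries at the left of each panel and tumour-free libraries at the right. Points are libraries, and the bar beside them is the mean with its SD (n = 4 each). For Cxcl1 all 4 Py230 points lie below the lowest tumour-free point, and for Cxcl13 tumour-free replicate 4 (3.20 CPM) lies among the Py230 points.

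Per kilobase of exon, Cxcl14 had the highest level of the members, at 270.4 ± 57.1 CPM per kilobase in Py230 libraries and 372 ± 71.8 in tumour-free libraries (SD, n = 4 each). Cxcl1 followed with 112 ± 23.4 in Py230 and 158 ± 26.5 in tumour-free libraries on the same scale, and Ccl2 with 107 ± 28.6 in Py230 and 131 ± 35.3 in tumour-free libraries. Cxcl1 and Ccl2 differed by less than the spread between libraries in both groups. Ccl7 was at 28.7 ± 10.1 in Py230 libraries and 52.4 ± 9.47 in tumour-free libraries, Cxcl13 at 2.44 ± 0.75 in Py230 and 7.15 ± 3.17 in tumour-free libraries, and Ccl11 at 0.73 ± 0.66 in Py230 and 0.95 ± 0.61 in tumour-free libraries. Among the 36 chemokines examined, Cxcl12, which retains stem cells and B-cell precursors in marrow, was the highest per length, at 1269 ± 195 CPM per kilobase in Py230 libraries and 2454 ± 183 in tumour-free libraries.

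Of 16 other CC chemokines 3 had enough reads and none passed the edgeR test, with 1 at an unadjusted p under 0.05, as were 16.2% of all genes tested, and a median log2 difference of -0.59. Of 14 other CXC, CX3C and XC chemokines 8 were tested, 3 fell and none rose, with a median of -0.75. These were Cxcl12, Cx3cl1, a membrane-bound chemokine, and Cxcl10, an interferon-induced ligand of Cxcr3. Cxcl10 was at 20.05, 75.5, 50.5 and 52.3 CPM in Py230 libraries and at 326, 283, 218 and 131 CPM in tumour-free libraries. All 4 Py230 libraries lay below all tumour-free libraries (log2 difference -2.26, SE 0.43, edgeR adjusted p = 0.0329), and leaving out any of 5 libraries ended the call. Of 6 receptors tested among 23, only the scavenging receptor Ackr4, which binds Ccl19 and Ccl21 and is made by stroma, fell (log2 difference -0.77, SE 0.13, edgeR adjusted p = 0.00386), with a median of 0.65 over the 6.

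A list of 21 genes held receptors through which chemokine genes are induced or repressed, and the receptor antagonist gene Il1rn. Of these 21 genes 2 rose and 2 fell, with a median log2 difference of 0.02. The interleukin-1 receptor gene Il1r1 was at 583, 556, 495 and 537 CPM in Py230 libraries and at 217, 232, 353 and 316 CPM in tumour-free libraries. All Py230 libraries were above all tumour-free libraries (log2 difference 0.96, SE 0.15, edgeR adjusted p = 0.00207). The oncostatin M receptor gene Osmr was also higher in every Py230 library, at 566 ± 72.4 CPM against 293 ± 39.9 CPM in tumour-free libraries (SD, n = 4 each; log2 difference 0.95, SE 0.12, edgeR adjusted p = 0.000764). The lymphotoxin receptor gene Ltbr (log2 difference -0.40, edgeR adjusted p = 0.0479) and the glucocorticoid receptor gene Nr3c1 (log2 difference -0.37, edgeR adjusted p = 0.0427) fell, each call being lost without any of 7 libraries.

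Markers of other cell types moved with the groups. Of 15 marker sums compared, 6 had ranges that did not overlap, each with an exact permutation p of 0.0286, the smallest it can give, and an adjusted p of 0.0714 over the 15 sums. The summed level of 10 monocyte and macrophage genes was 77.4 to 115 CPM in Py230 libraries and 51.6 to 66.5 CPM in tumour-free libraries (two-sided exact permutation p = 0.0286), and 59.0% of it came from Cd68. The sum of 7 tendon and cartilage genes was 146 to 423 CPM in Py230 libraries and 42.3 to 139 CPM in tumour-free libraries (exact p = 0.0286). The 7 LepR+ stromal genes, 64.0% of whose sum is Cxcl12, summed to 17428 ± 1619 CPM in Py230 libraries and 29343 ± 851 CPM in tumour-free libraries (SD, n = 4 each; exact p = 0.0286). The others were the sums for fibroblasts, at 788 to 1015 CPM in Py230 and 653 to 777 CPM in tumour-free libraries, sinusoidal endothelium (lower with Py230 tumours) and Schwann cells (higher), with 96.9%, 95.5% and 81.4% of each sum from Pdgfra, Vcam1 and Ncam1. The sinusoidal list also summed to 1479 CPM in PyMT and 2025 CPM in WT LepR+-like cells described below, so it does not mark endothelium alone. No marker of these lists was at 0 in all libraries. Gene by gene, edgeR called 0 of 6 tested fibroblast, 0 of 6 tendon and cartilage and 0 of 4 Schwann genes. It called 4 of 7 LepR+ stromal genes lower and 1 of 5 monocyte and macrophage genes higher. Of 7 sinusoidal genes 1 was called higher and 1 lower. Of all genes tested 2.74% were called lower and 1.99% higher. The sum of 22 immediate-early and dissociation genes overlapped, at 42342 to 45956 CPM in Py230 libraries and 42340 to 43889 CPM in tumour-free libraries (exact permutation p = 0.2). The part of these sums in the chemokine differences was not tested.

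In the stromal single-cell libraries, 3191 PyMT and 2190 WT cells passed the filter, with 2 cell barcodes in common between the libraries as deposited. The 6 clusters are those deposited by the authors, named here from marker genes. Cluster 0 was LepR+-like (2242 PyMT and 977 WT cells; Adipoq, Esm1 and Grem1 among its leading genes), and cluster 2 fibroblast-like (346 PyMT and 559 WT cells; Ccl11, Pi16 and Dpt leading). Cluster 1 (367 PyMT and 441 WT cells) was tendon- and cartilage-like and is called Fmod+ Chad+ after its leading genes. Clusters 3, 4 and 5 were sinusoidal endothelial-like, capillary endothelial-like and osteolineage-like, with 55 to 120 cells per library. Because these clusters were made from the cells compared, levels of a gene across clusters are descriptions. LepR+-like cells made up 70.3% of kept PyMT cells and 44.6% of kept WT cells.

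All 6 chemokines were found mainly in the LepR+-like, Fmod+ Chad+ and fibroblast-like clusters, called mesenchymal here. Values are CPM of UMIs summed over a cluster, with 95% exact Poisson intervals that cover counting error only. Ccl2 was highest in LepR+-like cells, at 372 CPM (361 to 384) in the PyMT library and 306 CPM (289 to 325) in the WT library, and next in fibroblast-like cells, at 245 CPM in PyMT and 67.1 CPM in WT. Cxcl14 had the same order at its top, at 1226 CPM (1205 to 1248) in PyMT and 1803 CPM (1759.8 to 1847) in WT LepR+-like cells. Its levels in the fibroblast-like and Fmod+ Chad+ clusters overlapped in the PyMT library, at 219 and 217 CPM. LepR+-like cells held 93.3% of the Cxcl14 UMIs of the PyMT library and 83.5% of those of the WT library.

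Ccl7 was at 429 CPM (401 to 458) in PyMT and 109.6 CPM (98.6 to 122) in WT fibroblast-like cells, and at 108 CPM in PyMT and 103 CPM in WT LepR+-like cells. The fibroblast level was the higher in the PyMT library, whereas in the WT library the intervals of both clusters overlapped. Cxcl1 was highest in fibroblast-like cells, at 1169 CPM (1123 to 1217) in PyMT and 499 CPM (475 to 524) in WT, ahead of LepR+-like cells at 682 CPM in PyMT and 325 CPM in WT. Ccl11, a leading gene of the fibroblast-like cluster, had 95.1% of its UMIs there in the PyMT library and 99.6% in the WT library. Cxcl13 was sparse, with 312 UMIs in all PyMT and 68 in all WT cells. Its level was 43.8 CPM (35.3 to 53.8) in PyMT and 6.07 CPM (3.71 to 9.38) in WT fibroblast-like cells, and 21.0 CPM (18.3 to 24.0) in PyMT and 13.0 CPM (9.56 to 17.2) in WT LepR+-like cells, so that the order of these clusters was reversed between the libraries. The fibroblast values rest on 12 PyMT and 6 WT cells with a UMI. A single PyMT cell held 38 of the 91 PyMT UMIs, so the order in the PyMT library leans on that cell.

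In the small clusters 3, 4 and 5 UMIs of Ccl2, Ccl7 and Cxcl1 were few. Sinusoidal endothelial-like cells had Cxcl1 at 77.2 CPM in PyMT (35 UMIs) and 5.93 CPM in WT (1 UMI). Their Ccl2 was at 33.1 CPM in PyMT (15 UMIs), with 0 UMIs in WT. Capillary endothelial-like cells had Ccl2 at 29.7 CPM in PyMT and 25.7 CPM in WT, on 3 UMIs each. In Fmod+ Chad+ cells Ccl2 was at 49.0 CPM in PyMT and 25.6 CPM in WT. Osteolineage-like cells, the deepest cluster with medians of 9662 UMIs per cell in PyMT and 11233 in WT, had no UMI of Ccl2 or Ccl7 in 55 PyMT and 63 WT cells. A count of 0 allows up to 5.45% of those PyMT and 4.76% of those WT cells to have a UMI, and does not limit the share that expresses the gene. Cxcl1 had a UMI in 1 of the 55 PyMT and 0 of the 63 WT osteolineage-like cells. Cxcl14 had one in 25.5% of PyMT and 20.6% of WT osteolineage-like cells.

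**Figure D2:**
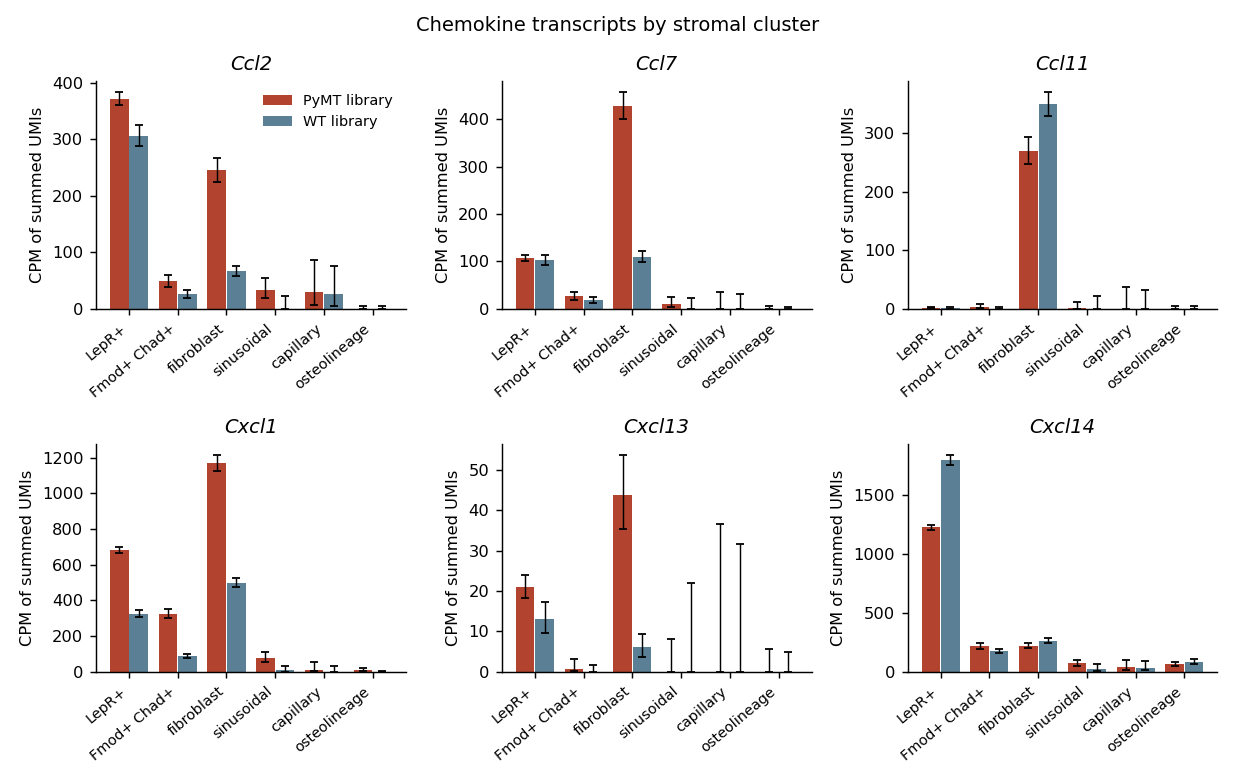
Level of each chemokine by stromal cluster (x axis) as CPM of summed UMIs (y axis, linear from 0), PyMT library in red at the left and WT library in blue at the right of each pair. Error bars are 95% exact Poisson intervals and cover counting error only. Ccl7 in fibroblast-like cells stands at 429 CPM in PyMT and 109.6 CPM in WT, and Cxcl14 in LepR+-like cells at 1226 CPM in PyMT and 1803 CPM in WT.

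Between the stromal libraries, Cxcl1 was higher in the PyMT library in all 3 mesenchymal clusters, and Cxcl14 was lower in its main source, the LepR+-like cells. No test was possible, and a log2 ratio of PyMT over WT CPM is given with its 95% counting interval. Cxcl1 had ratios of 1.07 (0.98 to 1.16) in LepR+-like, 1.90 (1.66 to 2.14) in Fmod+ Chad+ and 1.23 (1.14 to 1.32) in fibroblast-like cells. Cxcl14 had -0.56 (-0.60 to -0.51) in LepR+-like cells and 0.31 (0.10 to 0.52) in Fmod+ Chad+ cells. In fibroblast-like cells its -0.26 (-0.43 to -0.10) became 0.070 when the cells' own CPM values were averaged, and -0.08 without the cells that Scrublet marked as doublets. Over all kept cells of a library Cxcl14 had the opposite direction to LepR+-like cells. It was at 885 CPM (871 to 900) in PyMT and 782 CPM (765 to 800) in WT. LepR+-like cells were 70.3% of kept PyMT and 44.6% of kept WT cells.

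The CC chemokines Ccl2 and Ccl7 differed mainly in fibroblast-like cells. Ccl2 had a log2 ratio of 1.87 (1.64 to 2.10) there, 0.94 (0.44 to 1.45) in Fmod+ Chad+ cells on 88 PyMT and 56 WT UMIs, and 0.28 (0.18 to 0.38) in LepR+-like cells. Ccl7 had 1.97 (1.79 to 2.15) in fibroblast-like cells and 0.06 (-0.11 to 0.23) in LepR+-like cells, so its level there was not distinguishable between libraries by counting error. With every cell thinned to 1500 UMIs, the fibroblast ratios were 1.23 for Ccl2 and 1.42 for Ccl7. With means of per-cell CPM they were 1.34 for Ccl2 and 1.74 for Ccl7. All of these lie below the counting intervals above, which do not cover the sampling of cells. The highest 1% of fibroblast-like cells held 51.9% of Ccl2 UMIs in PyMT and 52.5% in WT. Cxcl13 had 2.85 (2.14 to 3.63) in fibroblast-like cells, resting on 91 PyMT and 20 WT UMIs, and 0.70 (0.24 to 1.18) in LepR+-like cells. When thinned, the fibroblast ratio was 4.01 (2.32 to 6.37) on 30 PyMT and 3 WT UMIs. The thinned LepR+-like ratio was 1.57 (0.56 to 2.77) on 63 PyMT and 9 WT UMIs. Ccl11 was lower in PyMT fibroblast-like cells, with a log2 ratio of -0.37 (-0.52 to -0.23), and of -0.42 with means of per-cell CPM. When thinned, its ratio was -0.23 (-0.51 to 0.05), an interval that spans 0.

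In fibroblast-like cells 4 of the 6 members (Ccl2, Ccl7, Cxcl1 and Cxcl13) were at least 1.5-fold higher in the PyMT library, against 11.3% of 10680 genes with at least 20 UMIs over both libraries. In LepR+-like cells these were 3 of 6 against 11.2% of 12617 genes, namely Cxcl1, Cxcl13 and Ccl11, the last on 21 PyMT and 4 WT UMIs. In Fmod+ Chad+ cells 4 members had enough UMIs and Ccl2 and Cxcl1 passed this fold, against 17.2% of 10207 genes. No member was 1.5-fold lower in these clusters, against 7.78% of genes in LepR+-like, 5.33% in Fmod+ Chad+ and 5.6% in fibroblast-like cells. The median log2 ratio of all such genes was 0.07 in LepR+-like, 0.16 in Fmod+ Chad+ and 0.09 in fibroblast-like cells.

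**Figure D3:**
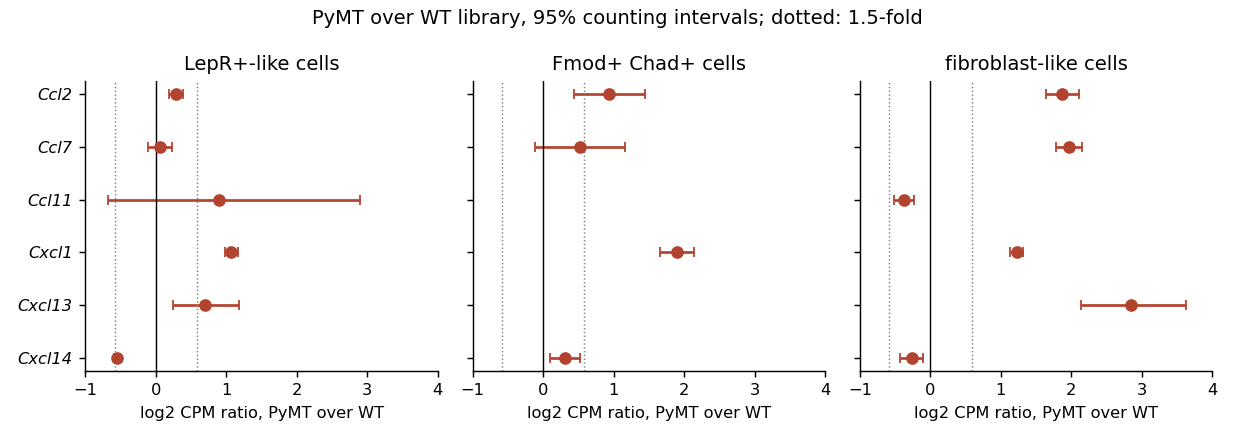
Log2 ratio of CPM in the PyMT over the WT library (x axis) for each chemokine (y axis) with at least 20 UMIs over both libraries, in 3 stromal clusters. Bars are 95% counting intervals, the solid line marks equal levels and dotted lines a 1.5-fold difference. Cxcl1 lies right of the upper dotted line in all 3 panels, and the Ccl7 interval spans 0 in LepR+-like cells.

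In LepR+-like cells the share of cells with a UMI, at 1500 UMIs per cell, had the direction of the level for Cxcl1 and Cxcl14. There 29.4% of 2162 PyMT cells (95% exact interval 27.5 to 31.4%) and 20.2% of 918 WT cells (17.6 to 22.9%) had a Cxcl1 UMI. A Cxcl14 UMI was found in 69.3% (67.3 to 71.2%) of these PyMT and 76.6% (73.7 to 79.3%) of these WT cells. Without thinning the Cxcl14 shares were 87.0% in PyMT and 85.5% in WT, an order opposite to the thinned one, and those of Cxcl1 were 40.2% in PyMT and 27.9% in WT. In Fmod+ Chad+ cells the thinned Cxcl14 share was 10.4% in PyMT and 11.9% in WT, against the direction of its level, and no order is read from it. In fibroblast-like cells Ccl7 had a UMI in 13.4% (9.96 to 17.4%) of 344 PyMT and 9.21% (6.93 to 11.9%) of 554 WT cells, intervals that overlap. Shallower cells left out were 80 PyMT and 59 WT LepR+-like cells, and 2 PyMT and 5 WT fibroblast-like cells.

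Members were concentrated in few cells to unlike degrees, and not only the inflammatory ones. The sparse Cxcl13 had a UMI in 4.42% of PyMT LepR+-like cells, so the highest 5% held 100% of its UMIs by necessity. The highest 1% held 56.8% of them. In fibroblast-like cells the highest 5% of cells held 84.3% of Ccl2 UMIs in the PyMT library and 86.0% in the WT library, and 77.1% of Ccl7 UMIs in PyMT and 71.2% in WT. A single cell of the PyMT library carried 147 of the 890 fibroblast Ccl7 UMIs, against at most 41 of 361 in a WT cell. In LepR+-like cells the highest 5% held 50.8% of Ccl2 UMIs in PyMT and 63.3% in WT, and 43.5% of Cxcl1 UMIs in PyMT and 53.9% in WT. For Cxcl14 the highest 5% held 24.6% in PyMT and 31.6% in WT. Of the 4 members with over 100 UMIs in LepR+-like cells of both libraries, Cxcl14 was the most evenly spread there. In fibroblast-like cells it was not, with 67.9% of its UMIs in the highest 5% of PyMT and 64.9% in those of WT cells, against 38.2% in PyMT and 56.5% in WT for Cxcl1. Ccl11 had 44.6% in PyMT and 38.7% in WT there.

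**Figure D4:**
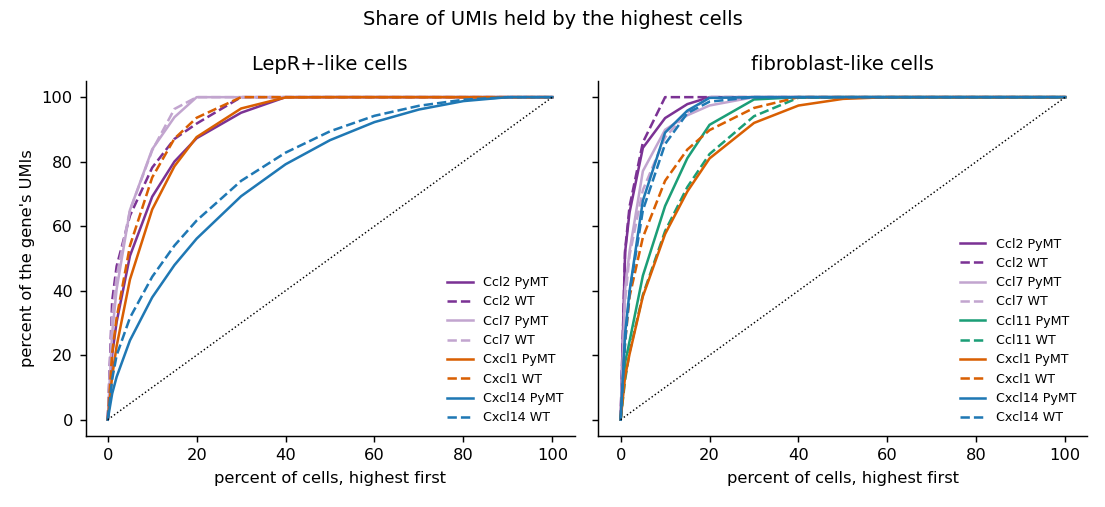
Cumulative percent of a chemokine's UMIs (y axis) held by a given percent of cells ordered from highest to lowest (x axis), in LepR+-like cells at the left and fibroblast-like cells at the right. Solid lines are the PyMT library, dashed lines the WT library, and the dotted diagonal an even spread. Cxcl13 is not drawn, nor is Ccl11 in LepR+-like cells. In LepR+-like cells the Cxcl14 lines (24.6% of UMIs in the highest 5% of PyMT cells) run nearest to the diagonal.

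LepR+-like cells with a Ccl2 UMI had Cxcl1 and Ccl7 more often than those without in both libraries. Of 523 PyMT LepR+-like cells with a Ccl2 UMI at 1500 UMIs per cell, 42.4% (38.2 to 46.8%) had a Cxcl1 UMI, against 25.3% of cells without Ccl2. The WT values were 36.1% (29.1 to 43.5%) of 183 cells and 16.2%. Ccl7 was found in 15.5% of Ccl2-positive and 7.81% of other PyMT cells, and in 16.9% of Ccl2-positive and 7.48% of other WT cells. Cxcl14 was found in 65.0% (60.8 to 69.1%) of Ccl2-positive and 70.7% (68.4 to 72.8%) of other PyMT cells, shares whose intervals overlap. For Ccl7 and Cxcl1, a Cxcl1 UMI was found in 39.7% (33.0 to 46.7%) of Ccl7-positive and 28.3% (26.3 to 30.4%) of other PyMT LepR+-like cells. In WT LepR+-like cells these intervals overlapped, at 29.1% (19.8 to 39.9%) of Ccl7-positive and 19.2% (16.6 to 22.1%) of other cells. In fibroblast-like cells the shares were 69.6% (54.2 to 82.3%) and 36.2% (30.8 to 42.0%) in PyMT, and 41.2% (27.6 to 55.8%) and 20.3% (16.8 to 24.1%) in WT. Ccl7 was found there in 29.4% (15.1 to 47.5%) of Ccl2-positive and 11.6% (8.27 to 15.7%) of other PyMT cells. The WT shares were 20.8% (7.13 to 42.2%) and 8.68% (6.42 to 11.4%), and these intervals overlap in both libraries. Those of Cxcl1 did not, at 67.6% and 37.7% in PyMT and 45.8% and 21.1% in WT.

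Immediate-early and dissociation genes, such as Fos and Jun, were higher in the PyMT library in every stromal cluster. The summed level of the 22 genes was 62913 CPM in PyMT and 35585 CPM in WT LepR+-like cells, 30596 CPM in PyMT and 14711 CPM in WT Fmod+ Chad+ cells, and 35405 CPM in PyMT and 18054 CPM in WT fibroblast-like cells. Sinusoidal endothelial-like cells had 34428 CPM in PyMT and 19809 CPM in WT, and capillary endothelial-like cells 27822 CPM in PyMT and 21625 CPM in WT. Osteolineage-like cells had 10101 CPM in PyMT and 5163 CPM in WT. LepR+-like cells with a Cxcl1 UMI had on average 109 UMIs of these genes per 1500 in the PyMT library, against 90.8 in cells without, and 77.4 against 52.0 in the WT library. Cells with Cxcl14 had fewer than cells without, at 90.4 against 109 in PyMT and 53.2 against 69.8 in WT. PyMT LepR+-like cells with Cxcl13 also had fewer, at 72.0 against 96.8. Fibroblast-like cells with Cxcl14 had 57.2 against 52.8 in PyMT and 29.4 against 25.9 in WT. Fibroblast-like cells with Ccl7 had 67.2 against 51.2 in PyMT and 25.6 against 26.5 in WT. The part of these genes in the chemokine differences was not tested.

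Marker sums of other cell types were also taken within clusters. In LepR+-like cells the 10 monocyte and macrophage genes summed to 47.5 CPM in PyMT and 38.3 CPM in WT cells with Fcgr1 at 0, the 8 neutrophil genes to 57.6 CPM in PyMT and 36.7 CPM in WT cells, and the 7 erythroid genes to 86.6 CPM in PyMT and 371 CPM in WT cells. The WT erythroid sum was above the WT level of Ccl2 in these cells. Osteolineage genes, among them Ibsp, summed to 4933 CPM in PyMT and 7880.2 CPM in WT LepR+-like cells, pericyte and smooth muscle genes to 331 CPM in PyMT and 197 CPM in WT, and Schwann genes to 148 CPM in PyMT and 284 CPM in WT. Their part in the chemokine differences was not tested. In fibroblast-like cells the monocyte and macrophage genes summed to 22.6 CPM in PyMT and 10.6 CPM in WT with Adgre1 and Fcgr1 at 0, and the neutrophil genes to 25.1 CPM in PyMT and 3.95 CPM in WT. Leaving out cells with a UMI of Ptprc, Lyz2, Cd52 or Tyrobp left 3, 2 and 4 members 1.5-fold higher in LepR+-like, Fmod+ Chad+ and fibroblast-like cells, as many as with them, and Ccl7 at a log2 ratio of 2.17 in fibroblast-like cells. Within the fibroblast-like cluster, cells with a UMI of Pi16, a marker of adventitial fibroblasts, had Cxcl1 less often in the WT library, at 11.6% (7.21 to 17.3%) of 173 cells against 27.0% (22.6 to 31.8%) of 381 cells without Pi16. In the PyMT library the shares were 31.3% (20.6 to 43.8%) of 67 cells with Pi16 and 43.0% (37.1 to 49.0%) of 277 cells without, and these intervals overlap.

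Other chemokines of LepR+-like cells did not all follow Cxcl1. The interferon-induced Cxcl9 and Cxcl10 were lower in the PyMT library, at 120 and 192 CPM against 289 and 403 CPM in WT, with log2 ratios of -1.27 (-1.39 to -1.16) and -1.07 (-1.16 to -0.97). Cxcl5, a neutrophil attractant like Cxcl1, was at 5.35 CPM (4.04 to 6.95) in PyMT and 21.3 CPM (16.9 to 26.6) in WT cells. Cxcl12 was at 18614 CPM in PyMT and 20937 CPM in WT cells, a log2 ratio of -0.17 (-0.18 to -0.16). The receptor genes Il1r1 and Osmr were higher in PyMT LepR+-like cells, with ratios of 0.99 (0.87 to 1.10) and 1.06 (0.92 to 1.21). In these cells Il1rn, which encodes an antagonist of that receptor, had 0.21 (0.12 to 0.30).

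Cxcl1 had a log2 difference of -0.50 in bulk MSC with Py230 tumours, which did not pass the edgeR test (adjusted p = 0.106), and a log2 ratio of 1.07 in PyMT LepR+-like cells. Ccl7 and Cxcl13, the members called lower in bulk MSC, were not lower in the PyMT library. Ccl7 had 0.06 (-0.11 to 0.23) in LepR+-like and 1.97 in fibroblast-like cells, and Cxcl13 had 0.70 and 2.85. Cxcl14 was at -0.46 in bulk MSC (edgeR adjusted p = 0.148) and -0.56 in LepR+-like cells, and Cxcl10 at -2.26 in bulk MSC and -1.07 in LepR+-like cells. Over all kept stromal cells Cxcl14 was instead higher in PyMT, at 885 CPM against 782 CPM in WT. The bulk and single-cell libraries differ in tumour model, chemistry and unit, and the difference between them was not tested.

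Over the 12 profiles of 6 clusters in 2 libraries, the genes most like each member were named from 9823 genes with at least 200 UMIs, by Pearson correlation of log2(CPM + 1). The profiles share 2 libraries and differ in depth, so these values are descriptions. Ccl7 was most like Gpr161 (r = 0.99), Scara5 and Nsg1, and Cxcl1 most like Dcbld2 (r = 0.96), Snx18 and Gpr161. Ccl2 was most like Dram1 (r = 0.93), Phactr1 and Galnt4. Ccl11 was most like Opcml (r = 0.98), Efhd1 and Ywhag, of which Opcml and Efhd1 also lead the fibroblast-like cluster. Cxcl14 was most like Plcl1 (r = 0.97), Plac8 and Ptchd1, and Cxcl13, the sparsest member, most like Tnfsf13b (r = 0.94), Steap4 and Ror1. Among the members, Ccl7 and Cxcl1 had the highest correlation, 0.94, and Ccl11 and Cxcl14 the lowest, 0.33.

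In HSPC, the cells on which such chemokines could act, no receptor of the chemokine family passed the test. Of 23 receptors 11 were tested with edgeR, 0 were called (2 at an unadjusted p under 0.05, as were 22.5% of all genes tested, and 1 with DESeq2), while of 11759 genes tested 0.85% were called higher and 0.553% lower in PyMT mice. Ccr2, the receptor of Ccl2 and Ccl7, was at 29.4 and 16.8 CPM in PyMT mice and at 13.6 and 4.03 CPM in WT mice. Both PyMT mice lay above both WT mice, as for 26.7% of genes (29.2% had the opposite separation), with a log2 difference of 1.34 (SE 0.77, edgeR adjusted p = 0.436).

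Ccr1, a receptor of Ccl7 and other CC chemokines, was at 3.53 and 2.48 CPM in PyMT mice and at 1.15 and 0.92 CPM in WT mice (log2 difference 1.52, SE 0.32, edgeR adjusted p = 0.0572). It passed with DESeq2 (adjusted p = 0.0313). With a mouse left out, its group keeps 1 mouse and has no spread, so only log2 differences are given. They ranged from 1.23 to 1.74 for Ccr1 and from 0.77 to 2.52 for Ccr2. Cxcr2, the receptor of Cxcl1, overlapped, at 9.74 and 11.4 CPM in PyMT mice and 11.3 and 7.09 CPM in WT mice (edgeR adjusted p = 0.651). Ccr3 and Cxcr5 were not analysed here. Ccl2 itself had 16 and 20 UMIs in PyMT mice and 19 and 6 UMIs in WT mice, and 0.25% to 0.42% of cells of a mouse had one. Of 7 other CC chemokines tested in HSPC, Ccl5 rose, at 13.8 and 15.2 CPM in PyMT mice against 6.77 and 8.87 CPM in WT mice (edgeR adjusted p = 0.0416). Of 5 other CXC, CX3C and XC chemokines Pf4, the platelet factor of megakaryocytes, fell, at 113 and 130.05 CPM in PyMT mice against 427 and 389 CPM in WT mice (edgeR adjusted p = 0.000307).

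**Figure D5:**
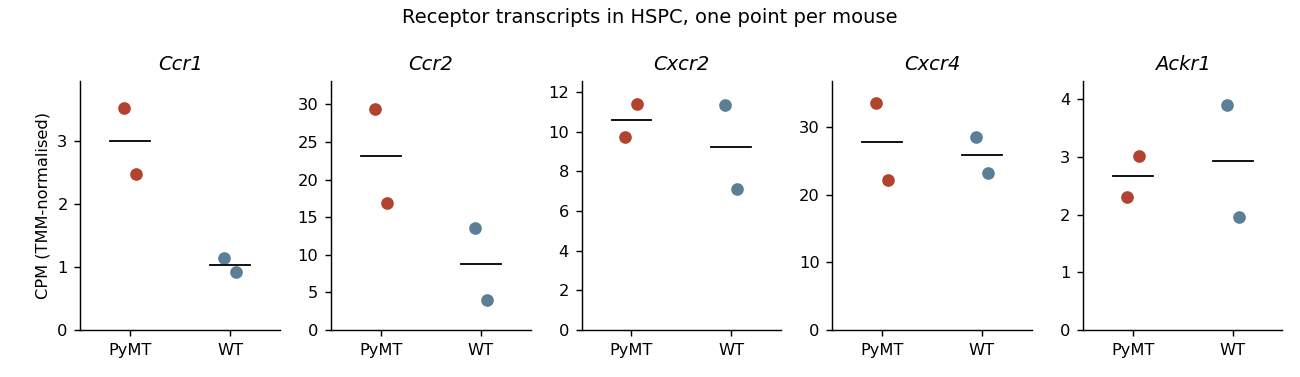
Level of 5 chemokine receptor genes in HSPC (y axis, TMM-normalised CPM of UMIs summed per mouse, linear from 0), PyMT mice at the left and WT mice at the right of each panel. Points are mice and the line is their mean (n = 2 each). Both PyMT points lie above both WT points for Ccr1 and Ccr2, and the points of Cxcr2, Cxcr4 and Ackr1 overlap.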

How the data were processed

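Bulk reads and single-cell libraries were processed by the authors with Trim Galore, STAR 2.5.3a and Cell Ranger 6.0.0 on build mm10, per the submitters' processing notes. The deposited tables hold raw counts of reads per gene (bulk) and of UMIs per gene and cell, per the file headers and whole-number values. Which program counted the reads, with what strand setting, and how cells were gated is not stated in any source used here. The deposited stromal metadata give the authors' clusters and the mitochondrial share as a fraction, and the deposited HSPC metadata give it as a percent.

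Counts were tested here with edgeR 4.0.16 (R 4.3.3; TMM, filterByExpr, robust quasi-likelihood, Benjamini-Hochberg over all genes tested, threshold 0.05), for HSPC on UMIs summed per mouse, with DESeq2 1.42.0 as an alternative. Of stromal cells, those with 500 genes or more and a mitochondrial share below 10% were analysed (3191 of 3563 PyMT, 2190 of 2508 WT; 15542745 and 10222176 UMIs), and intervals there cover counting error only. Scrublet marked 4 PyMT and 35 WT kept cells as doublets, which were left in. Marker sums were plain CPM, compared by exact permutation. The fits were tested on simulated data.

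Groups came from titles and genotype labels. HSPC libraries shared 8 to 23 cell barcodes in pairs. Members and gene lists were chosen with earlier results of these data known. Named genes are the members, their receptors, list genes past the threshold or among the highest chemokines, and the 3 genes most like each member. Results for 1 receptor are not reported here. Genes of lists named for stromal cells without passing a test were chosen after their values were seen.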

Additional observations from a re-analysis of the deposited data

Results flagged for a closer look

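Cxcl14 in Py230 replicate 1 of the bulk MSC libraries stood apart from the other Py230 libraries, at 649.8 CPM against 435 to 456 CPM in the other 3. Its gap to the nearest of them was 0.90 of the whole range of the group, above the critical value for 4 samples. Among 12 groups of 4 values (6 genes in 2 groups) chance alone flags about 1 in 20.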

How the results depend on the processing

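All 5 tested members kept their lower direction in Py230 bulk libraries under every alternative tried. The number called lower was 2, and it was 4 without a filter on low counts, 4 with DESeq2 and 0 with the replicate block. Over all genes, 578 of 44486 were called lower without the filter and 613 of 16317 with DESeq2, against 447 of 16317. With one library left out the number of members called lower ranged from 0 to 2, the 2 without Py230 replicate 1 being Ccl7 and Cxcl14. Those fits called 230 to 426 of all genes lower. The replicate numbers of the titles were not shown to pair the libraries (correlations of deviations of -0.39, -0.13, -0.20 and 0.02), and the block moved the calls over all genes to 176 higher and 237 lower, against 324 and 447. Among HSPC receptors and Ccl2, 0 were called higher and 0 lower. DESeq2 called 1 higher (over all genes 466 higher and 159 lower, against 100 and 65). Fits with one mouse left out keep 1 mouse in a group, so their calls are not counted. With one mouse left out, log2 differences changed sign for Ccl2 (-0.13 to 0.93) and Cxcr2 (-0.10 to 0.58), both without WT replicate 2, for Cxcr4 (-0.24 to 0.36) without PyMT replicate 1 or WT replicate 2 (-0.04), and for Ackr1 (-0.55 to 0.44) without PyMT replicate 1 (0.0027) or WT replicate 1. None of these genes passed the test. In the stromal libraries the log2 ratio of Cxcl14 in fibroblast-like cells reversed to 0.070 with means of per-cell CPM, and was -0.08 without Scrublet doublets. The number of members 1.5-fold higher in Fmod+ Chad+ cells was 2, and 4 with means of per-cell CPM. The cause of these shifts was not tested. Depth limits Ccl11 in bulk libraries and LepR+-like cells, and Cxcl13 throughout.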
